A study of Mus musculus with 45 samples.

Results

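This comparison set 6 female Pkd1KO+ciliaKO mice against 7 female noncystic mice and asked which translated mRNAs of the kidney tubule changed when *Pkd1* and the cilia gene *Kif3a* were inactivated together, before cysts had formed. The 13 libraries were those whose mouse numbers carry the female Pkd1KO+ciliaKO code or the female noncystic code in the count table, out of 45 libraries in the series. Genes were the 15968 protein-coding genes listed in the female TPM table, out of 55401 genes counted. Noncystic mice were *Pkd1* fl/+ and Pkd1KO+ciliaKO mice *Pkd1* fl/fl; *Kif3a* fl/fl, and the 8 female Pkd1KO mice used for contrast were *Pkd1* fl/fl with intact *Kif3a*. Every mouse was hemizygous for *RosaEGFP-Rpl10a*, *Pax8rtTA* and *TetOCre*, received doxycycline for the 2 weeks before day 42 of life, and was killed at 7 weeks of age. The noncystic mice thus also lost 1 copy of *Pkd1*, and deletion and ribosome tagging occurred only where *Pax8rtTA* was active, which is the tubule epithelium. The same genotypes in 9 and 8 males served to test for a sex difference.

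*Pkd1* encodes polycystin-1, a membrane protein of the primary cilium whose loss causes polycystic kidney disease. *Kif3a* encodes a motor subunit of kinesin-2, which carries the intraflagellar transport trains that build and maintain the cilium, so that tubule cells without it lose their cilia. Loss of cilia slows cyst growth in kidneys that lack polycystin-1. In translating ribosome affinity purification (TRAP), an EGFP-tagged ribosomal protein L10a is pulled down with the mRNAs being translated, so that a library represents mostly the cells that made the tag. The proximal tubule is divided into segments S1, S2 and S3. The S3 segment is the straight end part that reaches into the outer medulla and carries transporters for organic anions and amino acids.

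Each of the 13 libraries held between 93100477 and 122578318 fragments counted on genes, with 98.8% to 99.1% on the protein-coding genes tested. A count of 0 (3 counts of the total) allowed a level of up to 0.0245 to 0.0322 CPM, which covers counting error only. CPM is a gene's count relative to the library's total. Levels are given as CPM scaled by edgeR's TMM factors, and fold changes as log2 of Pkd1KO+ciliaKO over noncystic. Since CPM is not divided by gene length, levels are compared between mice and not between genes. No pair of libraries agreed within sampling noise. Tubule markers were high in every library. *Lrp2*, the endocytic receptor megalin of the proximal tubule, lay between 4118 and 6197 CPM (median 4976) in the noncystic and between 3216 and 4797 CPM (median 4403) in the Pkd1KO+ciliaKO libraries, and *Umod*, made by the thick ascending limb, between 1752 and 2488 CPM (median 2054) and between 1977 and 3094 CPM (median 2329.7). In such bulk libraries fewer tagged cells of a type and less translated mRNA per cell cannot be told apart.

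*Kif3a* (chr11:53567379-53601967, GRCm38) went against the labels in 2 of the 13 libraries. The 6 other noncystic libraries lay between 23.9 and 26.5 CPM (median 25.1) and the library labelled noncystic 5 at 7.02 CPM. The Pkd1KO+ciliaKO libraries 1 to 5 had 6.88, 7.52, 8.80, 8.83 and 6.86 CPM, while the library labelled Pkd1KO+ciliaKO 6 had 21.6 CPM. Each of these 2 libraries thus lay near the other genotype. Over all 13 libraries *Kif3a* had a log2 fold change of -1.16 with a standard error of 0.314 (edgeR adjusted p = 0.0605), short of the threshold of 0.05. The exact two-sided permutation test of its mean log2 level gave p = 0.0198. Without these 2 libraries, which were set aside for their *Kif3a* levels, the log2 fold change was -1.70 (standard error 0.0846). That value is a description, since the choice of libraries fixed the separation. Both libraries were kept under their labels, and the main results are given over all 13 libraries and over the other 11.

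*Pkd1* (chr17:24549834-24596508) was counted over the whole gene rather than over its floxed exons, and its levels overlapped. The noncystic libraries lay between 47.4 and 66.4 CPM (median 53.9) and the Pkd1KO+ciliaKO libraries between 51.3 and 67.1 CPM (median 56.2). The log2 fold change was 0.08 over 13 libraries (exact permutation p = 0.364) and 0.06 over 11 (exact permutation p = 0.537), so no difference was detected. *Glis2*, a zinc finger transcription factor, also overlapped. Its levels were between 157 and 285 CPM (median 213) in noncystic mice and between 198 and 271 CPM (median 231) in Pkd1KO+ciliaKO mice (log2 fold change 0.08, standard error 0.113, edgeR adjusted p = 0.724).

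At some other genes the same 2 libraries crossed over as well, and at others they did not. *Slc5a2*, the sodium glucose cotransporter of the early proximal tubule (chr7:128265657-128272430), lay between 76.1 and 96.3 CPM (median 86.0) in the 6 other noncystic libraries and at 7.23 in noncystic 5. Pkd1KO+ciliaKO 1 to 5 had 2.33, 5.62, 3.97, 4.05 and 4.49 CPM, and library 6 had 70.0 CPM. Without the 2 libraries *Slc5a2* was 21.1-fold lower in Pkd1KO+ciliaKO mice (log2 fold change -4.40, standard error 0.184, edgeR adjusted p = 1.88e-08). Over all 13 the log2 fold change was -2.31 (edgeR adjusted p = 0.115). *Pttg1*, which encodes securin, *Ankrd65* and *Coch*, which encodes the extracellular protein cochlin, showed the same crossing. For *Npas3*, a transcription factor of the basic helix-loop-helix family, noncystic 5 lay within the Pkd1KO+ciliaKO range, and Pkd1KO+ciliaKO 6 lay just under its own group and above the other noncystic libraries. For *Sod1*, *Ghr* and *Slc7a2*, in contrast, both libraries lay on the side of their labelled group. These genes passed the threshold over 13 libraries, in a fit that grouped the libraries by their labels. Choosing them thus favoured this placement, which does not test the labels. Of the 926 genes past the threshold without them, noncystic 5 lay nearer to the Pkd1KO+ciliaKO mean for 499 and Pkd1KO+ciliaKO 6 nearer to the noncystic mean for 488. Among the 170 of these genes that differed over 2-fold, noncystic 5 lay nearer to the Pkd1KO+ciliaKO mean, against its label, for 108. Pkd1KO+ciliaKO 6 lay nearer to the Pkd1KO+ciliaKO mean, with its label, for 50 and nearer to the noncystic mean for all the rest.

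**Figure D1:**
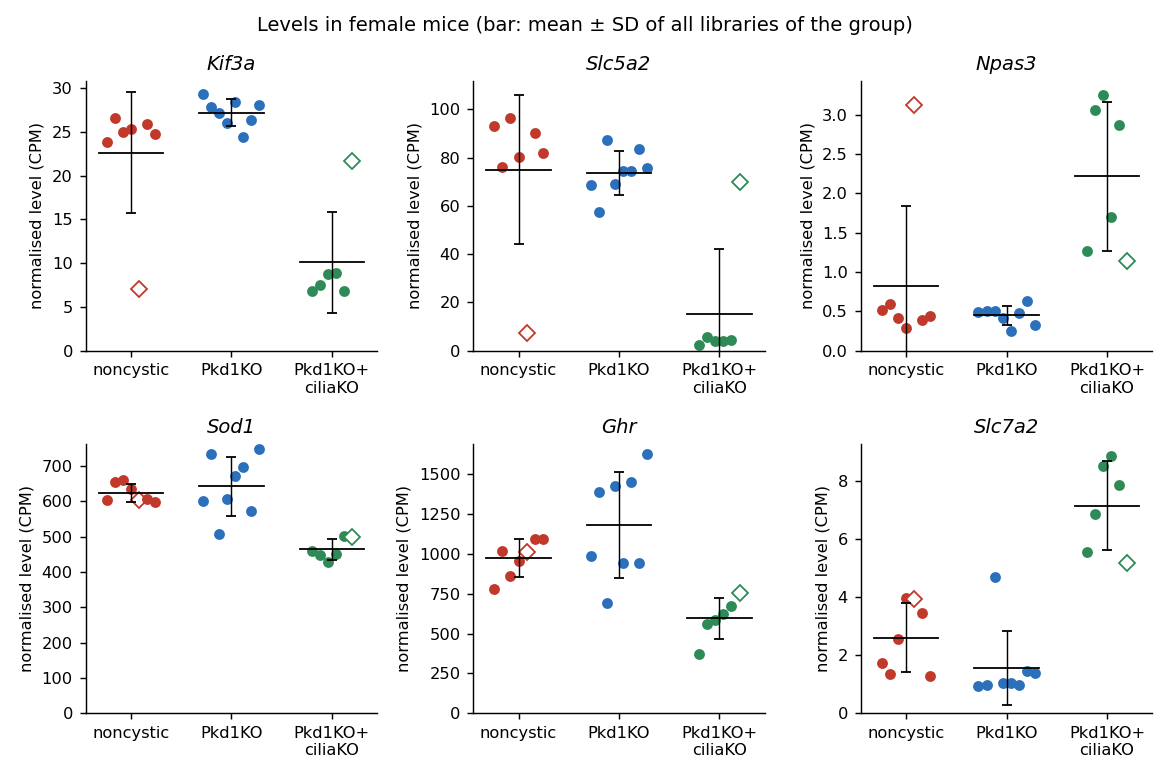
Normalised level (CPM) of 6 genes in each female library, by genotype, with the mean and SD of all libraries of a group as bars. Open diamonds mark the libraries labelled noncystic 5 and Pkd1KO+ciliaKO 6. They lie with the other genotype for *Kif3a* and *Slc5a2*, at 7.02 and 21.6 CPM for *Kif3a*. They lie with or next to their labelled group for *Sod1*, *Ghr* and *Slc7a2*, which passed over 13 libraries grouped by label.

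Over all 13 libraries 405 of 15968 genes (2.54%) passed an edgeR adjusted p of 0.05, 107 higher (0.670%) and 298 lower (1.87%) in Pkd1KO+ciliaKO mice, and 41 of them differed over 2-fold. Without the 2 libraries 926 genes passed (5.80%), 345 higher (2.16%) and 581 lower (3.64%), of which 170 differed over 2-fold. The 2 sets shared 382 genes, which is 94.3% of the first and 41.3% of the second, and none of the shared genes changed direction. The levels of all 6 Pkd1KO+ciliaKO libraries lay above those of all 7 noncystic libraries for 65 genes (0.407%) and below them for 206 (1.29%). In the 11 libraries these numbers were 323 (2.02%) and 584 (3.66%). The median log2 fold change of all genes tested was 0.01 in both.

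Single libraries decided how many genes passed. Over 13 libraries the count was 8 without Pkd1KO+ciliaKO 2, 8 without Pkd1KO+ciliaKO 3 and 13 without Pkd1KO+ciliaKO 4. It was 86, 101, 89 and 104 without noncystic 2, 3, 6 or 7, and 746 without noncystic 5. Over 11 libraries it was 523, 481 and 586 without noncystic 2, 6 or 7, and 557, 393 and 461 without Pkd1KO+ciliaKO 2, 3 or 4. Of 48 genes named by rank over 13 libraries, 8 stayed past the threshold whichever library was left out, namely *C1qtnf12*, *Capg*, *Cenpx*, *Defb29*, *Gcm1*, *H2-T23*, *Smim22* and *Sod1*. Of 62 named by rank over 11 libraries, 61 did so, the exception being *Gm2a*. Of the other genes named as list members, 0 of 42 called over 13 libraries and 34 of 86 called over 11 did. Each gene called over 13 libraries that lost its call in such a fit lost it without Pkd1KO+ciliaKO 2 and without Pkd1KO+ciliaKO 3, and all but *Methig1*, *Napsa*, *Slc9a3r1* and *Trim46* also without Pkd1KO+ciliaKO 4. Libraries that ended a call over 11 libraries are named with the gene.

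Genes of the S3 segment had the lowest median of the lists compared. Of 20 genes listed for the S3 segment, 7 were lower and 0 higher over 13 libraries, and 10 were lower and 0 higher over 11, where 3.64% of all genes were lower. The median log2 fold change of the 20 was -0.66 over 13 libraries and -0.69 over 11, against 0.01 for all genes, and 2 of 20 had a positive value. Their summed level was 4108 to 6570.0 CPM in the noncystic and 2169.8 to 4198 CPM in the Pkd1KO+ciliaKO libraries. The library labelled noncystic 5 had 5703 CPM, within its labelled group, and Pkd1KO+ciliaKO 6 had 4198, the highest of its group and above the lowest noncystic sum. The count of 7 over 13 libraries was 4 without noncystic 2, 3, 6 or 7 and 0 without Pkd1KO+ciliaKO 2, 3 or 4, while over 11 libraries it stayed between 7 and 11.

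*Aadat* encodes a mitochondrial aminotransferase of lysine and kynurenine breakdown (chr8:60505932-60545677). It lay between 1302 and 2289 CPM (median 1836) in noncystic mice. The Pkd1KO+ciliaKO libraries 1 to 5 had 414, 929.8, 969.6, 761 and 1142 CPM, and library 6 had 1278 CPM. All 6 lay below all 7, at a log2 fold change of -0.98 with a standard error of 0.202 (edgeR adjusted p = 0.0263), and the log2 fold change was -1.09 over 11 libraries (edgeR adjusted p = 0.0128).

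*Ghr*, the growth hormone receptor (chr15:3317760-3583492), did not overlap either. It lay between 776 and 1094 CPM (median 1009) in noncystic and between 373 and 756 CPM (median 604) in Pkd1KO+ciliaKO mice, and was 1.63-fold lower (log2 fold change -0.71, standard error 0.133, edgeR adjusted p = 0.0211). Over 11 libraries the log2 fold change was -0.78 (edgeR adjusted p = 0.00761).

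*Slc3a1* and *Slc7a9* encode the heavy and the light subunit of the transporter that takes up cystine and basic amino acids. *Slc3a1* (chr17:85028376-85064236) lay between 324 and 494 CPM (median 455) in noncystic and between 284 and 388 CPM (median 335) in Pkd1KO+ciliaKO mice (log2 fold change -0.43, standard error 0.094, edgeR adjusted p = 0.0329). Noncystic 1 was its only noncystic library within the Pkd1KO+ciliaKO range. *Slc7a9* (chr7:35448796-35466036) lay between 70.5 and 86.2 CPM (median 79.7) in 6 noncystic libraries, 53.2 in noncystic 5 and between 51.9 and 62.7 CPM (median 58.3) in Pkd1KO+ciliaKO mice (log2 fold change -0.39, standard error 0.0974, edgeR adjusted p = 0.0489). Over 11 libraries its groups did not overlap (log2 fold change -0.46, standard error 0.0762, edgeR adjusted p = 0.00535). The call of *Slc3a1* over 11 libraries (edgeR adjusted p = 0.0337) was lost without noncystic 2, 3, 4, 6 or 7 and without Pkd1KO+ciliaKO 2, 3 or 4, with adjusted p up to 0.101.

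The promoters of *Aadat* and *Slc3a1* are shown because they were the 2 of 15 S3 promoters in the RefSeq table that held the nonamer CAAAGTCCA, a binding motif of the nuclear receptor Hnf4a, on either strand. It was found in 70 of the 12363 promoters of tested genes (0.566%) and in 4 of the 229 promoters (1.75%) of genes lower in both fits. The S1 and S2 list held it in 1 of 28 promoters (3.57%), and genes over 2-fold lower over 11 libraries in 4 of 72 (5.56%). Of the 6 other motifs searched on both strands, the Gli site GACCACCCA was in 0 of 15 S3 promoters (0.226% of all), the AP-1 site TGANTCA in 2 (6.97%), the E-box CACGTG in 1 (10.8%), the D-box TTATGTAA in 1 (0.768%), the Tead site GGAATG in 0 (15%) and the CAAT box CCAAT in 5 (42.1%). None of these overlaps the Hnf4a motif in either window. The windows run from 250 bases before to 50 bases after the RefSeq gene start, in GRCm38.p6, on the plus strand, at chr8:60505874-60506173 for *Aadat* and chr17:85028097-85028396 for *Slc3a1*. Capitals mark the motif, which begins at base 179 in *Aadat*, on the minus strand, and at base 212 in *Slc3a1*. The match describes the letters of the window and not a bound site.
Aadat: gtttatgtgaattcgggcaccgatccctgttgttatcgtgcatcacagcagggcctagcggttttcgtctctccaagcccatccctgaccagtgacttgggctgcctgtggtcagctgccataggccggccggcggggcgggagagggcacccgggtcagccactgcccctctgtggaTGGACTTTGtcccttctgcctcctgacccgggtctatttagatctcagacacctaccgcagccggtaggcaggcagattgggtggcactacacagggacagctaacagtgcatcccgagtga
Slc3a1: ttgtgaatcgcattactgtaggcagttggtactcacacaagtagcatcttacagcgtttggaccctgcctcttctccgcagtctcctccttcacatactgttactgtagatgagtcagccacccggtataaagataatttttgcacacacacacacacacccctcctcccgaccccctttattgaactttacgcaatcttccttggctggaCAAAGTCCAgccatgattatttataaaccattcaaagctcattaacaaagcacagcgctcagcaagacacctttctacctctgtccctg

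Of the remaining S3 genes past the threshold, *Slc22a13*, an organic anion transporter, had a log2 fold change of -0.89 with a standard error of 0.157 (edgeR adjusted p = 0.0209). *Atp11a*, a phospholipid flippase, had a log2 fold change of -0.63 with a standard error of 0.12 (edgeR adjusted p = 0.0216). *Serpina1f*, a serine protease inhibitor family member, had a log2 fold change of -0.69 with a standard error of 0.11 (edgeR adjusted p = 0.0165), and its groups overlapped because noncystic 1, at 159 CPM, lay within the Pkd1KO+ciliaKO range. The calls of these 3 over 13 libraries were lost without Pkd1KO+ciliaKO 2, 3 or 4 and stood in every fit that left out 1 of the 11 libraries.

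Only over 11 libraries passed the organic anion transporters *Slco1a6* (log2 fold change -1.51, standard error 0.333, edgeR adjusted p = 0.0217) and *Slc22a19* (log2 fold change -1.08, standard error 0.282, edgeR adjusted p = 0.0399) and the amino acid transporter *Slc7a12* (log2 fold change -1.11, standard error 0.244, edgeR adjusted p = 0.0217). *Slco1a6* lay between 163 and 296 CPM (median 202) in the 6 noncystic libraries against 17.4, 69.7, 80.6, 89.7 and 107 CPM, with 166 in Pkd1KO+ciliaKO 6. The call of *Slco1a6* was lost without Pkd1KO+ciliaKO 2 or 3, that of *Slc7a12* without Pkd1KO+ciliaKO 4, and that of *Slc22a19* without noncystic 2, 3, 4, 6 or 7 or Pkd1KO+ciliaKO 2, 3 or 4. Pkd1KO+ciliaKO 1 had the lowest level of *Aadat*, *Ghr*, *Slco1a6*, *Slc22a19* and *Slc7a12*. *Acsm3*, an acyl-CoA synthetase, had the highest value of the 20 genes, at 0.50 over 11 libraries (edgeR adjusted p = 0.118). The *Slc22a* and *Slc7a* genes belong to families with close copies, and how reads that match several genes were treated is not given in the sources used here.

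**Figure D2:**
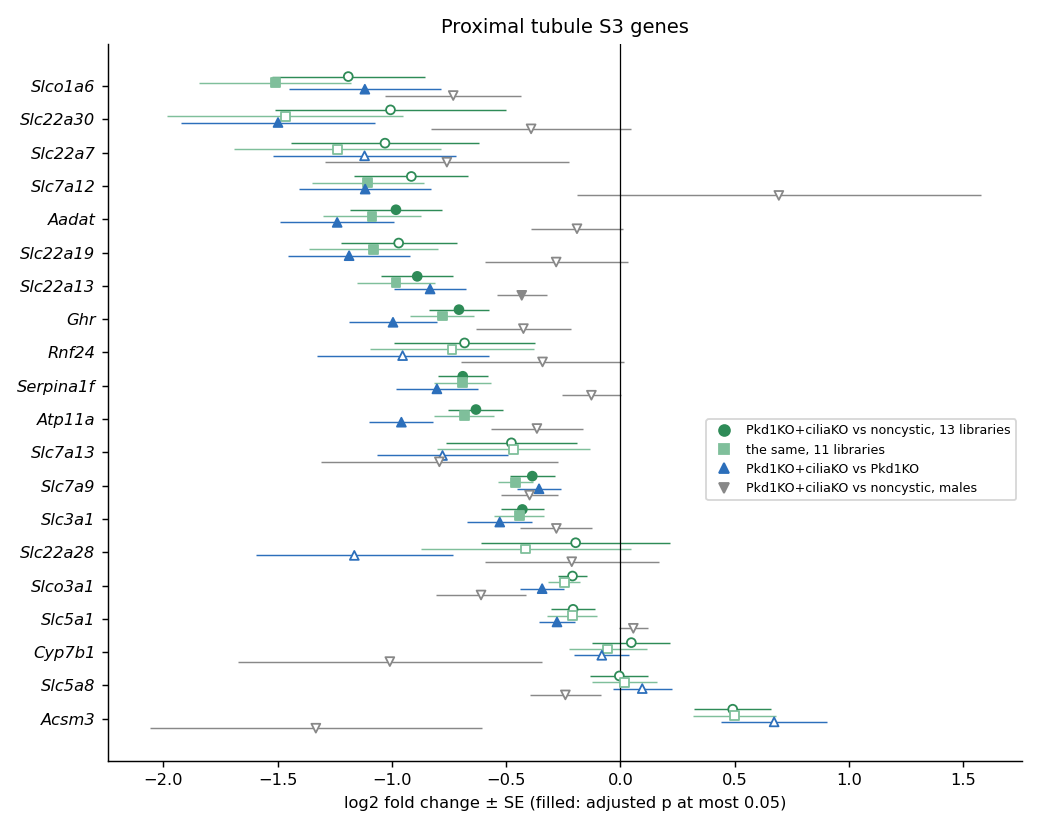
Log2 fold change with standard error (horizontal axis) of the 20 S3 genes, by comparison; filled symbols mark an edgeR adjusted p of at most 0.05. The points of most genes lie left of 0 for Pkd1KO+ciliaKO against noncystic (green) and against Pkd1KO (blue), and *Acsm3* lies to the right in both; among males (grey) 1 gene, *Slc22a13*, is filled.

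Of 32 genes listed for the S1 and S2 segments, 4 were lower and 0 higher over 13 libraries, and 4 and 0 over 11. Lower genes made up 1.87% and 3.64% of all genes in these fits. The list had medians of -0.15 and -0.21. The 4 over 13 libraries were *Acy3*, *Hnf4a*, *Slc16a9* and *Aqp1*, and over 11 *Slc5a2* stood in place of *Aqp1*. *Acy3*, an aminoacylase, lay between 535 and 1113 CPM (median 687) in noncystic and between 249.9 and 516 CPM (median 428) in Pkd1KO+ciliaKO mice, without overlap (log2 fold change -0.86, standard error 0.171, edgeR adjusted p = 0.0257). *Hnf4a*, a nuclear receptor that drives proximal tubule maturation (chr2:163506808-163572910), lay between 1049 and 1329 CPM (median 1163) and between 839.8 and 1024 CPM (median 918), also without overlap (log2 fold change -0.35, standard error 0.0751, edgeR adjusted p = 0.0295). Over 11 libraries the call of *Hnf4a* (edgeR adjusted p = 0.0264) was lost without noncystic 2, 3 or 7 or Pkd1KO+ciliaKO 2 or 3, and that of *Slc16a9* (edgeR adjusted p = 0.0279) without noncystic 6 or 7 or Pkd1KO+ciliaKO 2 or 3. *Slc34a1*, the phosphate cotransporter of the brush border, overlapped fully, at between 1311 and 1777 CPM (median 1626) and between 1272 and 1824 CPM (median 1625) (log2 fold change -0.01, standard error 0.102, edgeR adjusted p = 0.961).

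Amino acid transporters moved in both directions. Of 24 listed, 2 were higher and 4 lower over 13 libraries, and 2 and 5 over 11 (29.2%), against 2.54% and 5.80% of all genes called. *Slc6a20a*, a transporter of proline and other imino acids, lay between 7.14 and 13.8 CPM (median 11.8) in 6 noncystic libraries, 4.46 in noncystic 5 and between 3.30 and 5.35 CPM (median 4.35) in Pkd1KO+ciliaKO mice (log2 fold change -1.28, standard error 0.224, edgeR adjusted p = 0.0209). *Slc6a18*, a neutral amino acid transporter of the brush border, had a log2 fold change of -0.53 with a standard error of 0.126 (edgeR adjusted p = 0.0411), and over 11 libraries it passed only with noncystic 2, 3, 4, 6 and 7 and Pkd1KO+ciliaKO 1 to 4 all kept. The 2 that rose, *Slc38a1* and *Slc38a2*, carry neutral amino acids in cotransport with sodium. *Slc38a2* lay between 73.4 and 104 CPM (median 96.7) in noncystic mice and at 144, 108, 216, 123 and 153 CPM in Pkd1KO+ciliaKO 1 to 5, with 101 in library 6 (log2 fold change 0.60, standard error 0.148, edgeR adjusted p = 0.0473), and *Slc38a1* had a log2 fold change of 0.42 with a standard error of 0.0906 (edgeR adjusted p = 0.03). *Slc7a2*, a carrier of arginine and lysine named by rank and outside the list, rose 2.75-fold. It lay between 1.27 and 3.95 CPM (median 2.57) in noncystic and between 5.18 and 8.84 CPM (median 7.36) in Pkd1KO+ciliaKO mice, without overlap (log2 fold change 1.46, standard error 0.269, edgeR adjusted p = 0.0209). Organic ion transporters had 0 of 33 genes higher and 4 lower over 13 libraries, and 0 and 6 over 11 (12.1% and 18.2%, against 1.87% and 3.64% of all genes lower). Among them was *Abcc6*, an efflux pump (log2 fold change -2.08, standard error 0.166, edgeR adjusted p = 1.64e-05 over 11 libraries, and a log2 fold change of -1.63 over 13).

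*Napsa*, an aspartic protease of the lysosome (chr7:44572380-44586862), lay between 877 and 1807 CPM (median 1586) in noncystic and between 642 and 994 CPM (median 766) in Pkd1KO+ciliaKO mice (log2 fold change -0.93, standard error 0.14, edgeR adjusted p = 0.0144). Noncystic 1 was the lowest noncystic library and the only one below the highest Pkd1KO+ciliaKO library. *Slc9a3r1*, the scaffold that anchors the phosphate cotransporter at the brush border, lay between 300.5 and 372 CPM (median 327) and between 222 and 271 CPM (median 249.5), without overlap (log2 fold change -0.41, standard error 0.0644, edgeR adjusted p = 0.0164). *Ace*, angiotensin-converting enzyme, was 1.79-fold lower (log2 fold change -0.84, standard error 0.156, edgeR adjusted p = 0.0209). *Kap*, the androgen-regulated protein of the proximal tubule, was 2.2-fold lower, from between 4319.9 and 13780.0 CPM (median 9524) to between 2334 and 6826 CPM (median 3708) (log2 fold change -1.14, standard error 0.258, edgeR adjusted p = 0.036). Of 18 male-biased proximal tubule genes 3 were lower and 0 higher over 13 libraries and 5 and 0 over 11 (16.7% and 27.8%). Of 13 female-biased genes 2 were lower and 0 higher over 13, and 3 and 1 over 11 (15.4% and 30.8%). Of all genes 2.54% and 5.80% were called. *Slc51b*, *Slc15a2*, *Mcfd2* and *Mpst*, chosen after their values were seen, had log2 fold changes of -0.62, -0.62, -0.48 and -0.60 over 13 libraries, with edgeR adjusted p-values of 0.0209, 0.0209, 0.0182 and 0.036.

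*Sod1*, the cytosolic superoxide dismutase (chr16:90220754-90226329), had the smallest p of the 13-library comparison. It lay between 599 and 661 CPM (median 608) in noncystic and between 427 and 501 CPM (median 454) in Pkd1KO+ciliaKO mice, without overlap, and was 1.34-fold lower (log2 fold change -0.43, standard error 0.0566, edgeR adjusted p = 0.00894). Of 28 genes of the Nrf2 and glutathione list, 0 were higher and 3 lower over 13 libraries and 0 and 4 over 11 (10.7% and 14.3%, against 1.87% and 3.64% of all genes lower). The 3 were *Gclm* and *Gss*, which make glutathione (log2 fold change -0.38, standard error 0.0878, edgeR adjusted p = 0.0364 and log2 fold change -0.43, standard error 0.0932, edgeR adjusted p = 0.0311), and *Gpx4*, a glutathione peroxidase (log2 fold change -0.28, standard error 0.0684, edgeR adjusted p = 0.0454). Over 11 libraries each of these 3 calls was lost without noncystic 2, 6 or 7 and without Pkd1KO+ciliaKO 2, 3 or 4, among others. The cholesterol synthesis list had 0 genes higher and 1 lower of 24 over 13 libraries (4.17%), and 0 and 3 over 11, namely *Mvk*, *Pmvk* and *Mvd*, successive enzymes of the mevalonate pathway. Their log2 fold changes over 11 libraries were -0.31, -0.36 and -0.49, and *Pmvk* had the smallest edgeR adjusted p of 0.0147. The calls of *Mvk* and *Mvd* were lost without noncystic 2, 3, 6 or 7 or Pkd1KO+ciliaKO 2, 3 or 4, among others. *Acadm*, which begins the oxidation of medium-chain fatty acids, was lower at between 1204 and 2056 CPM (median 1829.8) against between 989.8 and 1432 CPM (median 1147) (log2 fold change -0.56, standard error 0.118, edgeR adjusted p = 0.0293; over 11 libraries lost without Pkd1KO+ciliaKO 3), while of the 36 genes of fatty acid oxidation 0 were higher and 1 lower.

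Most cytosolic ribosomal protein genes had small negative values. Of 76 genes 1 was lower over 13 libraries and 3 over 11, and 0 were higher. These shares were 1.32% and 3.95%, against 1.87% and 3.64% of all genes lower. The medians were -0.19 and -0.19, with 2 and 1 positive values. Over 13 libraries 45 of the 76 had an unadjusted p under 0.05, as did 3412 of all 15968 genes, and DESeq2 called 14. The 54 genes of oxidative phosphorylation encoded in the nucleus had medians of -0.10 and -0.13, with 0 and 2 lower (3.70% over 11). Of these 54 genes 17 had an unadjusted p under 0.05 over 13 libraries, and DESeq2 called 5. The 12 genes of the mitochondrial genome had positive medians of 0.84 and 0.78, none past the threshold by edgeR. Over 13 libraries 11 of the 12 had an unadjusted p under 0.05 and DESeq2 called 1. Their summed level ranged from 486 to 2399 CPM in noncystic and 785 to 2682 CPM in Pkd1KO+ciliaKO libraries. Whether the mRNAs of the mitochondrial genome were bound to tagged ribosomes was not tested. Transcript length moved with these values. The exon length of the genes called over 13 libraries had a median of 6022 bases for those higher and 2714.5 for those lower, against 4252.5 for all genes tested, and Spearman's rank correlation between log2 fold change and exon length across genes was 0.22. In males it was 0.06. Its part in the results was not tested.

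Among the other genes with the smallest p, *Capg*, an actin capping protein, lay between 57.1 and 86.3 CPM (median 78.6) in noncystic and between 40.7 and 54.0 CPM (median 47.7) in Pkd1KO+ciliaKO mice (log2 fold change -0.64, standard error 0.0882, edgeR adjusted p = 0.00894). *Gcm1*, a transcription factor, lay between 7.36 and 10.4 CPM (median 9.72) and between 4.50 and 5.99 CPM (median 5.05) (log2 fold change -0.81, standard error 0.113, edgeR adjusted p = 0.00894). *H2-T23*, a nonclassical class I molecule of the major histocompatibility complex, lay between 43.4 and 69.2 CPM (median 59.2) and between 25.8 and 40.5 CPM (median 31.1) (log2 fold change -0.84, standard error 0.118, edgeR adjusted p = 0.00894). The groups did not overlap for any of these 3 genes. *C1qtnf12*, a secreted protein of the C1q and tumour necrosis factor family, was 1.89-fold lower and *Trim46*, a microtubule-associated protein, 2.63-fold lower, again without overlap. *Cenpx*, *Smim22*, *Atpif1* and *Methig1* did not overlap either, with log2 fold changes of -0.39, -0.58, -0.40 and -0.91. *H2-T23* and *Methig1* have close paralogs, so their counts are uncertain in that respect.

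*Spink6*, a serine protease inhibitor of the Kazal type chosen after its values were seen, was close to all or none. Noncystic 1, 2, 3, 6 and 7 had 31.1, 16.0, 12.7, 20.9 and 15.8 CPM, while noncystic 4 and 5 had 0.0108 and 0 CPM. The Pkd1KO+ciliaKO libraries had 0 CPM in 4 libraries, and 0.0166 and 0.0446 in the others. The 8 Pkd1KO libraries ranged from 0 to 25.8 CPM. Both noncystic libraries without *Spink6* thus lay within the Pkd1KO+ciliaKO range, and no fold is given since all but 1 Pkd1KO+ciliaKO library lay under the limit of a count of 0.

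Of the genes that rose, *Plekhg1* had the smallest p. It lay between 24.5 and 37.5 CPM (median 33.3) in noncystic and between 40.2 and 52.5 CPM (median 48.4) in Pkd1KO+ciliaKO mice, without overlap (log2 fold change 0.55, standard error 0.0983, edgeR adjusted p = 0.0209). *Mfsd4a*, a solute carrier of the major facilitator family, lay between 124 and 142 CPM (median 132) and between 146 and 213 CPM (median 175) (log2 fold change 0.41, standard error 0.0763, edgeR adjusted p = 0.0209). *Vldlr*, a lipoprotein receptor, was 1.2-fold higher without overlap (log2 fold change 0.26, standard error 0.0516, edgeR adjusted p = 0.0257). *Il1rap*, the accessory protein of the interleukin receptor family, *Sema6d*, a semaphorin, *B4galt6*, a glycosphingolipid enzyme, *Arhgap28*, *Zfp354c* and *Kcnd2*, a potassium channel, also did not overlap, with log2 fold changes between 0.36 and 0.89. *Cpne9* passed at levels of 0.0612 to 0.117 CPM against 0.00844 to 0.0378, close to the limit of a count of 0, and DESeq2 gave it no adjusted p.

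*Mfrp*, a frizzled-related membrane protein, was chosen after its values were seen. It lay between 2.28 and 7.39 CPM (median 3.48) in noncystic mice and at 17.9, 10.5, 14.3, 13.3 and 7.75 CPM in Pkd1KO+ciliaKO 1 to 5, with 5.91 in library 6 (log2 fold change 1.47, standard error 0.295, edgeR adjusted p = 0.0257). Library 6 lay within the noncystic range, and over 11 libraries the groups did not overlap, at a log2 fold change of 1.80. *Coch* was higher at between 0.974 and 2.43 CPM (median 1.80) against 9.13, 11.1, 11.9, 9.03 and 8.90 CPM, with noncystic 5 at 6.50 and Pkd1KO+ciliaKO 6 at 3.17 (log2 fold change 1.88, standard error 0.395, edgeR adjusted p = 0.0283 over 13 libraries; 2.52 over 11). *Npas3* lay between 0.293 and 0.599 CPM (median 0.427) in 6 noncystic libraries and at 1.27, 3.06, 3.26, 1.71 and 2.86 CPM in Pkd1KO+ciliaKO 1 to 5, and passed only over 11 libraries (log2 fold change 2.45, standard error 0.267, edgeR adjusted p = 3.30e-04).

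Of 33 genes of kinesin-2 and intraflagellar transport 0 were higher and 1 lower over 13 libraries (3.03%, against 2.54% of all genes). Over 11 libraries 1 was higher and 2 lower (9.09%, against 5.80%). *Kif3a* was 1 of the 2 lower, and the choice of libraries fixed its separation, so that share is not read as an excess. The 1 lower over 13 libraries was *Ift27*, a small GTPase of the transport train, at between 17.9 and 27.2 CPM (median 21.6) in noncystic and between 14.1 and 18.4 CPM (median 15.4) in Pkd1KO+ciliaKO mice (log2 fold change -0.43, standard error 0.0965, edgeR adjusted p = 0.036). Over 11 libraries its call (edgeR adjusted p = 0.0189) was lost without Pkd1KO+ciliaKO 4. *Kif17*, the homodimeric kinesin-2 motor, was higher over 11 (log2 fold change 0.89, standard error 0.211, edgeR adjusted p = 0.0279), a call lost without noncystic 6 or 7 or Pkd1KO+ciliaKO 4. *Kif3b* and *Kifap3*, the partners of *Kif3a* in the motor, had log2 fold changes of -0.05 and 0.09 over 11 libraries (edgeR adjusted p = 0.717 and 0.456). None of 34 genes of the BBSome and transition zone and none of 15 genes of polycystic kidney and liver disease passed in either fit, with medians of -0.02 each over 11 libraries. Over 13 libraries 7 and 3 of them had an unadjusted p under 0.05, and DESeq2 called 2 and 0.

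Of 20 genes of the hedgehog pathway, which signals through cilia, 1 was higher over 13 libraries and 2 over 11, with 0 lower, where 0.670% and 2.16% of all genes were higher. *Gas1*, a coreceptor for hedgehog ligands, lay between 23.5 and 32.8 CPM (median 28.5) in noncystic and between 33.4 and 61.0 CPM (median 36.7) in Pkd1KO+ciliaKO mice, without overlap (log2 fold change 0.52, standard error 0.127, edgeR adjusted p = 0.0448). Over 11 libraries its call (edgeR adjusted p = 0.0252) was lost without noncystic 6. *Gpr161*, a ciliary receptor that restrains the pathway, was higher over 11 (log2 fold change 0.53, standard error 0.104, edgeR adjusted p = 0.013). Of the 38 genes of the G2 and M phases, 0 passed in either direction by edgeR with medians of 0.26 and 0.32, while 8 and 7 of them had an unadjusted p under 0.05 and DESeq2 called 1 in each. In males 35 were higher, with a median of 1.02. The difference between the sexes was not tested for the list. Of 37 S phase genes, 0 passed over 13 libraries and 1 was lower over 11. Over 11 libraries 2 of 25 immediate early genes (8.00%), 2 of 22 p53 targets (9.09%) and 2 of 33 interferon-stimulated genes (6.06%) were higher and 0 lower, against 5.80% of all genes called and 2.16% higher. Over 13 libraries 0, 0 and 1 passed.

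**Figure D3:**
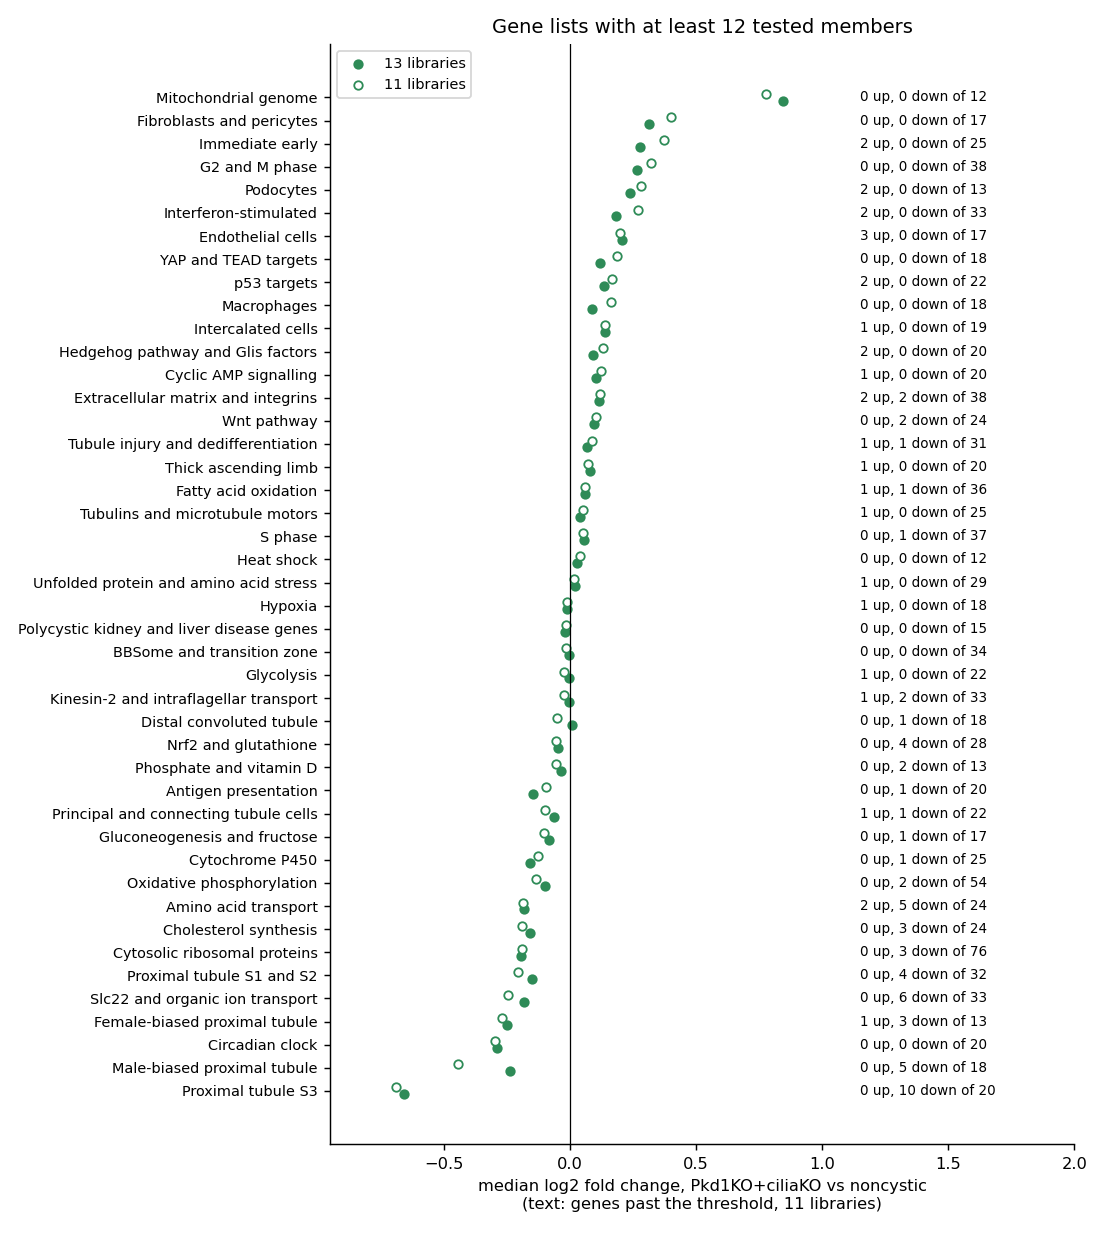
Median log2 fold change of Pkd1KO+ciliaKO against noncystic females for each gene list with at least 12 tested members, over 13 libraries (filled) and over 11 (open); the numbers at the right count genes past the threshold over 11 libraries. Proximal tubule S3 lies lowest, with 10 of 20 genes lower, and the mitochondrial genome highest, with 0 of 12 past the threshold.

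Markers of cells outside the tubule were detected as well. Of 17 endothelial markers 0 passed over 13 libraries and 3 were higher over 11 (17.6%, against 2.16% of all genes higher). All 17 had positive values, and their summed level was 191 to 352 CPM in noncystic and 243 to 472 CPM in Pkd1KO+ciliaKO libraries. Of 13 podocyte markers 0 passed over 13 libraries and 2 were higher over 11 (15.4%), at sums of 236 to 314 CPM and 222 to 400.0 CPM. For 17 fibroblast markers 0 passed in either fit, at 552 to 972 CPM and 586 to 1374 CPM, and for 18 macrophage markers 0 passed, at 88.6 to 134 CPM and 65.7 to 124 CPM. These 4 sums overlapped between genotypes. At an unadjusted p under 0.05 over 13 libraries were 4 endothelial, 1 podocyte, 5 fibroblast and 1 macrophage marker, and DESeq2 called 3, 0, 1 and 1. Of 8 mast cell markers 1 was higher over 11 libraries (12.5%), namely *Ms4a2* (log2 fold change 1.81, standard error 0.321, edgeR adjusted p = 0.00758), and *Cpa3* was at 0 to 0.0910 CPM throughout. The T cell markers summed to 3.73 to 5.83 CPM and 2.53 to 5.33 CPM, and the B cell markers to 1.29 to 4.89 CPM and 1.63 to 4.00 CPM. Principal and connecting tubule cell genes summed to 5178 to 8773 CPM and 4872 to 6542 CPM, and thick ascending limb genes to 7059.6 to 9090.4 CPM and 7280.1 to 9572 CPM. The part of these markers in the results was not tested.

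The direct comparison of the 6 Pkd1KO+ciliaKO with the 8 Pkd1KO females asked what differs once *Kif3a* is lost on a *Pkd1* null background. It gave 1869 genes (11.7%), 743 higher (4.65%) and 1126 lower (7.05%), and 1661 (10.4%) without Pkd1KO+ciliaKO 6, of which 647 were higher (4.05%) and 1014 lower (6.35%). The count was 1241 without Pkd1KO+ciliaKO 3. Of the 20 S3 genes 13 were lower and 0 higher, with a median of -0.89, and 8, 7 and 8 were lower without Pkd1KO+ciliaKO 2, 3 or 4. Of the 12 genes of the mitochondrial genome 7 were higher (58.3%) and 0 lower than in Pkd1KO mice, with a median of 1.26. Their summed level was 290 to 1656 CPM in Pkd1KO and 785 to 2682 CPM in Pkd1KO+ciliaKO libraries, so the sums overlapped. Pkd1KO and noncystic females, which share mice with both comparisons above, differed at 533 genes (3.34%), 322 higher (2.02%) and 211 lower (1.32%), and at 558 (3.49%) without noncystic 5, 340 higher (2.13%) and 218 lower (1.37%), and 0 of 20 S3 genes passed by edgeR over all libraries, with a median of 0.14. *Aadat* lay between 1122 and 2850.0 CPM (median 2412) in Pkd1KO mice. It had a log2 fold change of -1.24 with a standard error of 0.249 (edgeR adjusted p = 0.00562) in Pkd1KO+ciliaKO against Pkd1KO mice and 0.26 in Pkd1KO against noncystic mice (edgeR adjusted p = 0.526). *Ghr* lay between 694 and 1626 CPM (median 1186), and against it the log2 fold change was -1.0 (standard error 0.192, edgeR adjusted p = 0.00453).

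Among the genes with the smallest p against Pkd1KO mice, the direction against the 2 other genotypes was not always the same. *Spns2*, a transporter of sphingosine phosphate (chr11:72451638-72489904), lay between 99.2 and 138 CPM (median 115) in noncystic, between 47.1 and 102 CPM (median 75.1) in Pkd1KO+ciliaKO and between 11.7 and 26.5 CPM (median 17.6) in Pkd1KO mice. It was lower than in noncystic mice by 1.54-fold (log2 fold change -0.63, standard error 0.138, edgeR adjusted p = 0.0342) and higher than in Pkd1KO mice (log2 fold change 2.02, standard error 0.176, edgeR adjusted p = 1.31e-05). *Ccl5*, a chemokine, lay between 1.57 and 3.55 CPM (median 2.28), between 0.602 and 1.48 CPM (median 1.04) and between 2.39 and 6.20 CPM (median 4.90) in the same order, and was lower against both (log2 fold change -1.16, standard error 0.222, edgeR adjusted p = 0.0226; -2.17 against Pkd1KO with edgeR adjusted p = 5.63e-05). *Lrrc28* and *Sypl2* were lower against Pkd1KO by log2 fold changes of -1.10 and -0.73. *Atp6v0c*, a proton pump subunit near *Pkd1*, lay at between 45.5 and 54.2 CPM (median 49.8) in Pkd1KO and between 42.8 and 78.9 CPM (median 49.9) in Pkd1KO+ciliaKO mice, with a log2 fold change between them of 0.09 (edgeR adjusted p = 0.641).

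Genes on the chromosomes next to the targeted loci were counted separately. Within 5 Mb of *Kif3a*, 8 of 113 tested genes passed over 11 libraries (7.08%, against 5.80% of all genes) and 3 (2.65%) over 13. The libraries left out were chosen by their *Kif3a* level, so the values of its neighbours over 11 libraries are a description. *Il4* and *Lyrm7* crossed over in the same 2 libraries. For *Lyrm7*, noncystic 5 had 2.42 CPM and Pkd1KO+ciliaKO 6 had 7.18 CPM. *Il4*, an interleukin gene that lies next to *Kif3a* (chr11:53602982-53618669), had a log2 fold change of -1.48 with a standard error of 0.215 (edgeR adjusted p = 0.00245) over 11 libraries. It did not pass over 13 (log2 fold change -0.87, edgeR adjusted p = 0.171). It lay between 0.633 and 0.946 CPM (median 0.679) in 6 noncystic libraries and at 0.204, 0.187, 0.330, 0.334 and 0.248 CPM in Pkd1KO+ciliaKO 1 to 5, with noncystic 5 at 0.323 and Pkd1KO+ciliaKO 6 at 0.918. *Lyrm7*, an assembly factor of respiratory complex III, had a log2 fold change of -1.66 with a standard error of 0.128 (edgeR adjusted p = 1.26e-05) over 11 libraries, and did not pass over 13 (log2 fold change -1.11, edgeR adjusted p = 0.071). *Atox1*, a copper chaperone, passed in both, with a log2 fold change of -0.69 with a standard error of 0.0778 (edgeR adjusted p = 4.61e-04) over 11 and -0.56 over 13 (edgeR adjusted p = 0.0209). Within 5 Mb of *Pkd1*, 21 of 198 genes passed over 11 libraries (10.6%) and 7 (3.54%) over 13, and 18 did so between Pkd1KO and noncystic females, where 3.34% of all genes passed. *Atp6v0c* (chr17:24163866-24169702) lay between 97.7 and 107 CPM (median 102) in 6 noncystic libraries, 49.7 in noncystic 5, 55.8, 54.6, 42.8, 45.2 and 43.8 CPM in Pkd1KO+ciliaKO 1 to 5 and 78.9 in library 6 (log2 fold change -1.07, standard error 0.0792, edgeR adjusted p = 9.40e-06 over 11 libraries, and -0.81 with edgeR adjusted p = 0.03 over 13). *Rnps1*, a splicing factor, had a log2 fold change of -0.77 with a standard error of 0.0823 (edgeR adjusted p = 2.87e-04), and *Mcrip2* a log2 fold change of -0.47 with a standard error of 0.0675 (edgeR adjusted p = 0.00231), both over 11 libraries. Over 13 they were at -0.59 and -0.41 (edgeR adjusted p = 0.036 and 0.0209).

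**Figure D4:**
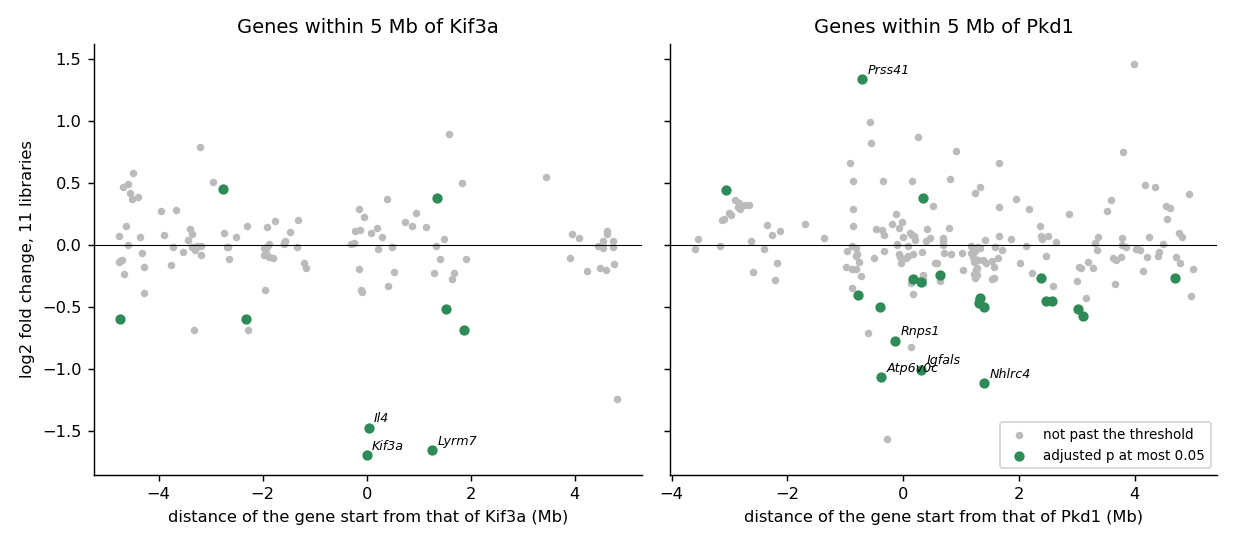
Log2 fold change over 11 libraries of tested genes against the distance of their start (Mb) from that of *Kif3a* (left) and of *Pkd1* (right). The start is the lowest coordinate of a gene on either strand. Green points passed an edgeR adjusted p of 0.05. *Kif3a*, *Il4* and *Lyrm7* are the lowest green points on the left, where the libraries left out were chosen by *Kif3a*. *Atp6v0c*, *Igfals* and *Nhlrc4* are the lowest on the right, where *Prss41* is the highest.

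More than 5 Mb from these loci, some chromosome windows held a larger share of genes past the threshold. In 361 windows of 5 Mb with at least 15 tested genes, the median share of genes past the threshold over 11 libraries was 5.08%, and 7 windows held over 20%. On chromosome 12 between 50 and 55 Mb it was 8 of 20 genes (40.0%), among them *Coch*, *Npas3* and *Egln3*, and 6 of these passed in the same direction in males. On chromosome 4 between 155 and 160 Mb it was 16 of 47 (34.0%), among them *Ankrd65*, *C1qtnf12* and *Cptp*, and 11 passed in males. On chromosome 11 between 40 and 45 Mb it was 5 of 17 (29.4%), including *Pttg1*. That window lies on the chromosome that also carries *Kif3a*, and the part of linkage to the targeted locus was not tested. Over 13 libraries 3, 7 and 1 genes passed in these windows, in the same order. Of all genes called over 11 libraries and tested in males, 49.7% of those higher and 28.6% of those lower passed in the same direction in males. Between Pkd1KO and noncystic females, 0, 2 and 0 genes passed in these 3 windows. *Pttg1* (chr11:43420250-43426251) lay between 40.2 and 49.4 CPM (median 44.3) in 6 noncystic libraries and at 4.42, 5.47, 4.99, 5.89 and 4.35 CPM in Pkd1KO+ciliaKO 1 to 5, with noncystic 5 at 6.64 and Pkd1KO+ciliaKO 6 at 34.5 (log2 fold change -3.17, standard error 0.0962, edgeR adjusted p = 5.40e-10 over 11 libraries). It did not pass over 13 (log2 fold change -1.99, edgeR adjusted p = 0.0645).

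In males 1422 of 15991 genes passed between 9 Pkd1KO+ciliaKO and 8 noncystic mice (8.89%), 901 higher (5.63%) and 521 lower (3.26%). Of the 101 genes higher in females both over 13 and over 11 libraries, 43 were also higher in males and 0 lower, and 98 had the same sign. Of the 281 genes lower in both, 51 were lower in males and 1 higher, and 260 had the same sign. Over 11 libraries 171 genes were higher and 166 lower in both sexes, which is 19% of the male genes higher and 31.9% of those lower. The S3 genes had a median of -0.38 in males, with 1 of 20 lower, *Slc22a13* (log2 fold change -0.43, standard error 0.11, edgeR adjusted p = 0.0184). *Aadat* was at -0.19 and *Ghr* at -0.42 in males (edgeR adjusted p = 0.605 and 0.216). The test of the sex difference gave -0.79 and -0.28 (edgeR adjusted p = 0.532 and 1), so the change of these genes was not shown to differ between the sexes.

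The sex difference itself passed for 5 of 15828 genes (0.0316%), 1 higher (0.00632%) and 4 lower (0.0253%) in females relative to males. Without the 2 libraries it passed for 3 (0.0190%), all lower, namely *Hsd17b14*, *L3mbtl4* and *Spidr* (-1.03, edgeR adjusted p = 0.0347), the last chosen after its value was seen. In the fit with all libraries 965 genes had an unadjusted p below 0.05. *Hsd17b14*, a steroid dehydrogenase (chr7:45554893-45567752), lay between 19.3 and 28.4 CPM (median 24.1) in 6 noncystic females, 10.4 in noncystic 5, 8.14, 10.2, 11.1, 10.4 and 9.43 CPM in Pkd1KO+ciliaKO 1 to 5 and 17.0 in library 6. It fell in females (log2 fold change -0.99, standard error 0.205, edgeR adjusted p = 0.027) and rose in males (log2 fold change 0.61, standard error 0.154, edgeR adjusted p = 0.0184), with a female minus male difference of -1.60 (edgeR adjusted p = 0.0102) and of -1.89 without the 2 libraries. *L3mbtl4* differed by -3.03 and *Serpina6*, which encodes corticosteroid-binding globulin, by -6.01, where males alone had 2.42 and 5.07 (edgeR adjusted p = 4.88e-05 and 0.00309) and neither gene passed in females. In the female libraries *Serpina6* lay between 2.13 and 14.7 CPM (median 7.02) in noncystic, between 1.63 and 5.33 CPM (median 4.42) in Pkd1KO+ciliaKO and between 14.8 and 577 CPM (median 56.9) in Pkd1KO mice. *Mcm6*, a subunit of the replicative helicase, differed by -0.62, and *Sorcs1*, a sorting receptor near 0.1 to 0.3 CPM, by 2.12. Without the 2 libraries *Serpina6*, *Sorcs1* and *Mcm6* no longer passed, with edgeR adjusted p-values of 0.0709 each.

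**Figure D5:**
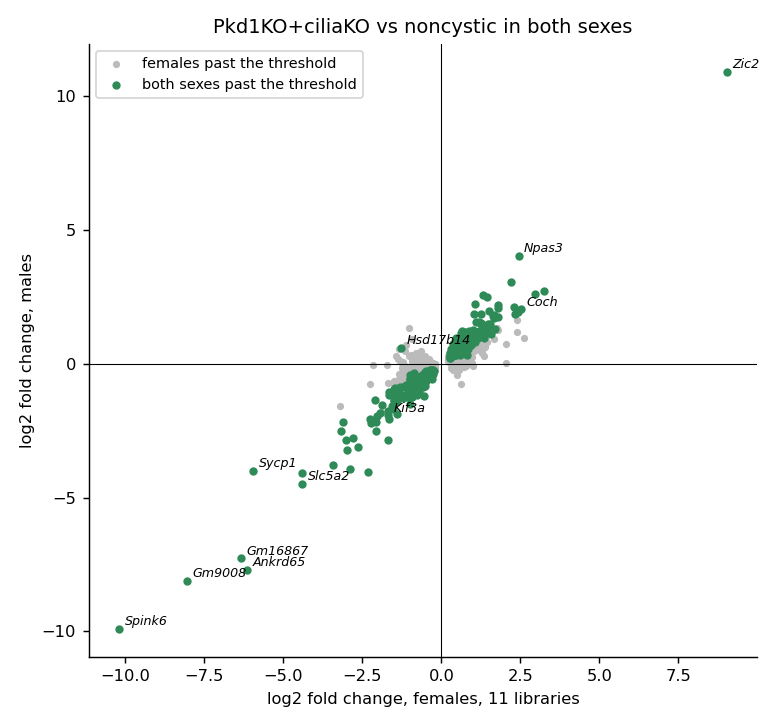
Log2 fold change of Pkd1KO+ciliaKO against noncystic mice in females (11 libraries, horizontal) and in males (vertical) for genes past the threshold in females; green points passed in both sexes. Most points lie at the lower left and the upper right, and *Hsd17b14* is the green point at the upper left; labelled genes beyond 5 on the horizontal axis, among them *Zic2* and *Spink6*, were picked by that value, and each but *Ankrd65* had a noncystic or Pkd1KO+ciliaKO library at 0 CPM.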

How the data were processed

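TRAP RNA was sequenced as paired 150-base reads, 1 library per mouse. Raw fragment counts per gene were deposited by the authors, who used fastp 0.20.0 for trimming, the aligner STAR 2.7.9 on build GRCm38.p6, and featureCounts 2.0.0 with GENCODE genes. They also deposited TPM, a level divided by transcript length and library size, which served to choose the genes and for 1 alternative. Strand setting and treatment of reads matching several genes are not given in the sources used here.

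Counts of protein-coding genes in the TPM table were tested in R 4.3.3 with edgeR 4.0.16 (TMM, quasi-likelihood test, Benjamini-Hochberg adjusted p of at most 0.05). The test was run on simulated data first. Alternatives were DESeq2 1.42.0, limma 3.58.1 (voom with quality weights, or log2(TPM + 1)), other filters and scaling, all genotypes in 1 fit, a replicate block, and leaving out each library. Groups came from the GEO labels.

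The comparison, its gene lists and its rules were chosen with earlier results of these data known. Named genes were *Kif3a*, *Pkd1*, *Glis2*, the 15 with the smallest p in each direction in each fit, the 5 with the smallest p in the sex difference and against Pkd1KO, the top 3 by p no further than 5 Mb from either targeted locus, and list members. *Spink6*, *Mfrp*, *Slc51b*, *Slc15a2*, *Mcfd2*, *Mpst*, *Zic2*, *Spidr*, genes labelled by value in plots and the genes given for chromosome windows were chosen after their values were seen.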

Additional observations from a re-analysis of the deposited data

Results flagged for a closer look

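In 40 of 120 gene and group combinations examined, 1 library lay far from the rest of its group by Dixon's test, which by chance marks about 1 in 20 groups. That rate does not hold here, since most of these genes were named by small p, in part in the fit without noncystic 5 and Pkd1KO+ciliaKO 6, and *Kif3a* was the reason to set those libraries aside. The counts below are therefore a description. The library labelled noncystic 5 was marked 21 times and Pkd1KO+ciliaKO 6 was marked 14 times. Values below are normalised CPM.

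Noncystic 5 lay far below the other noncystic libraries for *Lrmda* (1.28), *Lrrc28* (23.4), *Abcc6* (0.989), *Apom* (16.4), *Atp6v0c* (49.7), *Rnps1* (23.6), *Kif3a* (7.02), *Pttg1* (6.64), *Lyrm7* (2.42), *Slc5a2* (7.23). It lay far above them for *Vldlr* (109.7), *Coch* (6.50), *Slc38a1* (16.6), *Prrg3* (2.81), *Kcns3* (8.18), *Ehbp1* (24.6), *Bok* (41.4), *Car11* (3.77), *Gprin2* (7.89), *Npas3* (3.12), *Cptp* (92.3).

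Pkd1KO+ciliaKO 6 lay far above the other Pkd1KO+ciliaKO libraries for *Lrmda* (2.66), *Lrrc28* (29.2), *Hsd17b14* (17.0), *Atp6v0c* (78.9), *Kif3a* (21.6), *Pttg1* (34.5), *Lyrm7* (7.18), *Ogdhl* (12.5), *Slc5a2* (70.0), *Ankrd65* (1.42), and far below them for *Tubgcp5* (17.7), *Coch* (3.17), *Nbl1* (17.3), *Stmn1* (33.6).

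Noncystic 1 was far below its group for *Napsa* (877), *Serpina1f* (159), *Ppic* (89.5). Noncystic 3 was far above its group for *Smim22* (26.5) and far below it for *Kcnd2* (0.398). The part of these libraries in the results is given by the values without them, and their identity was not tested.

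The effect of genotype differed between the sexes for 5 genes by the edgeR interaction test. The female minus male difference of log2 fold change was -3.03 for *L3mbtl4*, -1.60 for *Hsd17b14*, 2.12 for *Sorcs1*, -6.01 for *Serpina6* and -0.62 for *Mcm6*, with edgeR adjusted p-values of 0.0102, 0.0102, 0.0182, 0.0380 and 0.0474.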

How the results depend on the processing

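Over 13 libraries the count of 405 genes became 1280 by DESeq2, 1357 by voom with quality weights and 1000 by limma on log2(TPM + 1). It ranged from 8 to 746 when 1 library was left out, and was 926 without both libraries whose *Kif3a* goes against the label. Over 11 libraries the count of 926 became 1708, 1913 and 1470 by the same 3 methods and ranged from 393 to 1133. Against Pkd1KO the count of 1869 ranged from 1241 to 2084. For the sex difference DESeq2 called 57 genes against 5, and 3 passed without the 2 libraries. The count of S3 genes lower over 13 libraries (7) was 11 by voom, ranged from 0 to 9 with 1 library left out, and was 10 without both. Over 11 libraries (10) it ranged from 7 to 11, and against Pkd1KO (13) from 7 to 14. *Kif3a* over 13 libraries passed by DESeq2 (-1.16), with all genotypes in 1 fit (-1.17) and by voom (-1.17), ranged from -1.53 to -1.07 with 1 library left out, and was -1.70 without both. The cause of these changes was not tested.

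Replicate numbers are shared between genotypes, but nothing in the labels says that they mark a litter or batch, and the correlations of deviations within the 6 numbers ran from -0.187 to 0.241, so they were not taken as pairs. With the replicate number as a block the counts were 74 over 13 libraries, 92 over 11 and 625 against Pkd1KO, the S3 counts were 4 over 11 libraries and 7 against Pkd1KO, and *Pkd1* over 11 libraries turned to -0.0616 (edgeR adjusted p = 0.822). Of 109 gene results past the threshold, 62 no longer passed with the block, 5 with all genotypes in 1 fit, 5 by limma on TPM and 2 without a filter. None of them changed direction.

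Low counts limit genes such as *Cpne9*, *Sorcs1* and *Cpa3*. No difference in *Pkd1* or *Glis2* between Pkd1KO+ciliaKO and noncystic females was detectable with these libraries.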
